A study of Mus musculus with 2 samples.

Results

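The early growth response factors Egr1, Egr2, Egr3 and Egr4 and their corepressors Nab1 and Nab2 were examined in primary mouse pituitary cells kept in either of 2 RNA stabilizers. The 6 genes were taken by symbol from the 47069 genes of the deposited count table, and all 6 reached the mean of 1 CPM (a count scaled to a library total of 1e6) that 16504 genes passed. Whole pituitaries of randomly cycling C57BL/6 females aged 10 to 12 weeks were digested with collagenase and pancreatine, and the 500000 to 700000 cells of each sample came from 5 pooled glands. No genotype, hormone treatment or time point differed between the samples. The RNA-Best sample was stored in the stabilization buffer of the study, which is meant to keep single cells intact, and the RNAlater sample in the established reagent that served as the reference. Each group was 1 library, with 53915047 counts in RNA-Best and 44917492 in RNAlater, so the differences could not be set against the spread between replicates and were not tested. The 95% intervals given cover the counting error of reads only, and not the spread between samples. PCR copies of a molecule are counted as separate reads, so the intervals may be too narrow even for the sampling of molecules.

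Egr factors are zinc finger transcription factors that bind GC-rich sites and are transcribed within minutes of growth factor, hormone or mechanical signals. Signals reach their genes mainly through the ERK kinase cascade, which activates ternary complex factors bound with serum response factor at CArG boxes. Nab1 and Nab2 bind Egr1, Egr2 and Egr3 through a domain that Egr4 lacks, and act mostly as corepressors. In pituitary gonadotropes, GnRH induces Egr1, which acts with Nr5a1 and Pitx1 on the promoter of Lhb, the luteinizing hormone beta subunit gene. The study asked whether RNA-Best keeps transcript levels, with attention to such handling-sensitive immediate-early genes. Its comparison of Fos and Egr1 used qPCR in a gonadotrope cell line against fresh cells, where RNA-Best gave no significant difference. The study also compared replicate RNA-seq libraries of fresh and RNA-Best cells of that line after GnRH. It described their expression levels as highly consistent. For the pituitary libraries used here, the study reported that expression was highly correlated between the stabilizers.

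Sequence upstream of the annotated transcript starts is shown because it holds the kinds of site through which such genes are known to be induced, or bound by Egr factors. RefSeq promoter windows on GRCm38.p6 matched Egr2, Egr4, Nab1 and Nab2. The 250 bases before each start were searched on both strands for the CArG box, for TGACGT (a cAMP response element half-site) and for GCGNGGGCG (the Egr site). Stretches are written on the strand of the gene with the match in capitals.
Egr2, CArG box, chr10:67537484-67537513 (+): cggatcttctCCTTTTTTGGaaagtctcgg
Egr2, CArG box, chr10:67537787-67537816 (+): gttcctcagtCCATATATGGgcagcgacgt
Egr2, TGACGT on the opposite strand, chr10:67537803-67537828 (+): atgggcagcgACGTCAcgggtattga
Egr4, TGACGT on the opposite strand, chr6:85513752-85513777 (-): ggcggcagcaACGTCAcaggccgagc
Egr4, TGACGT on the opposite strand, chr6:85513684-85513709 (-): ttggtcatttACGTCAcggcgccagg
Nab1, Egr site on the opposite strand, chr1:52500571-52500599 (-): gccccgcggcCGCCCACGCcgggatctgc
Nab1, Egr site, chr1:52500539-52500567 (-): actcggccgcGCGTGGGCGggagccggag
Nab1, Egr site, chr1:52500468-52500496 (-): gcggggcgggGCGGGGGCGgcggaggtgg
The matches did not overlap each other, and the Nab2 window held none of the 3 motifs. Of 32851 windows of the same length, 1.47% held a CArG box, 6.47% TGACGT and 4.70% the Egr site. A match describes the letters of the window and is no measurement of binding.

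Egr1, a rapidly induced regulator of growth and of Lhb transcription, was by far the most abundant of the 6. Egr1 (ENSMUSG00000038418.7, chromosome 18, 34859823-34864984, GRCm38) reached 1234 CPM in RNA-Best against 2353 in RNAlater, from 66511 and 105707 counts. Its CPM in RNA-Best was thus 52.4% of that in RNAlater, and its log2 ratio of RNA-Best to RNAlater, taken after adding 0.5 CPM to both, was -0.93 (interval -0.95 to -0.92). By CPM it was the 17th most abundant of all genes in RNAlater and the 44th in RNA-Best.

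Egr2, also called Krox20 and known for its role in hindbrain patterning and in Schwann cell myelination, was more than an order of magnitude less abundant. Egr2 (ENSMUSG00000037868.15, chromosome 10, 67535475-67542188) had 54.5 CPM in RNA-Best against 92.2 in RNAlater, and its log2 ratio was -0.75 (-0.83 to -0.69). Egr3, which is needed for muscle spindle development, was the least abundant member in RNA-Best. Egr3 (ENSMUSG00000033730.3, chromosome 14, 70077203-70082614) had 5.79 CPM in RNA-Best against 12.4 in RNAlater, from 312 and 556 counts, and its log2 ratio was -1.03 (-1.30 to -0.89). The interval of each of these 3 ratios by CPM lay below 0, as did that of each member described next. How many of all genes tested had such an interval was not counted.

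Egr4, which acts in male germ cells and lacks the site for Nab binding, stood apart from the other Egr factors. Egr4 (ENSMUSG00000071341.4, chromosome 6, 85511121-85513589) had 8.87 CPM in RNA-Best against 10.6 in RNAlater, from 478 and 475 counts, and its log2 ratio was -0.24 (-0.44 to -0.07). Its CPM intervals overlapped between the libraries (8.09 to 9.70 in RNA-Best, 9.65 to 11.6 in RNAlater). The interval of its ratio by CPM still lay below 0, but scaling moved the ratio, as given below. Of the corepressors, Nab1 (ENSMUSG00000002881.14, chromosome 1, 52457294-52500679) had 52.2 CPM in RNA-Best against 71.5 in RNAlater, and its log2 ratio was -0.45 (-0.53 to -0.38). Nab2, itself an inducible gene in many cells, was counted less often than Nab1. Nab2 (ENSMUSG00000025402.12, chromosome 10, 127660918-127668568) had 41.4 CPM in RNA-Best against 50.0 in RNAlater, and its log2 ratio was -0.27 (-0.36 to -0.19).

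**Figure D1:**
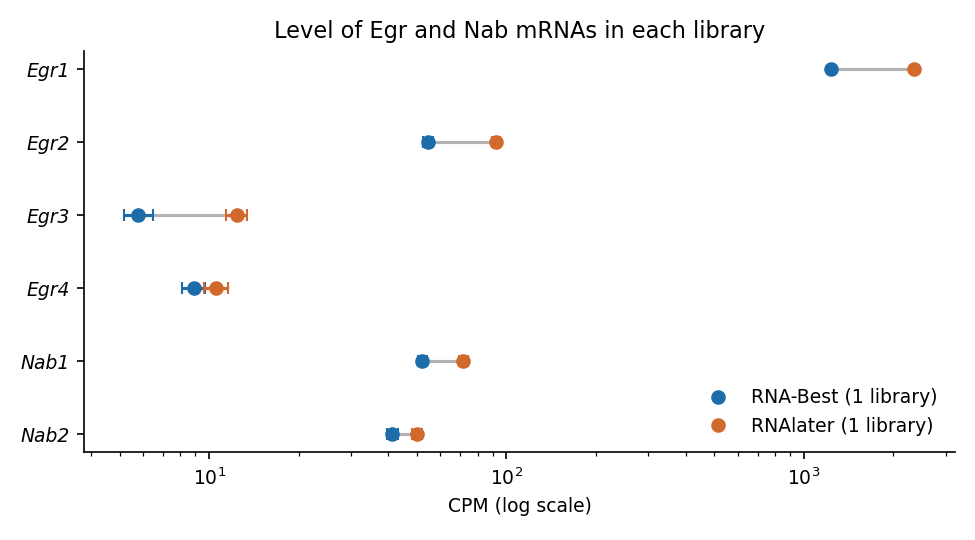
CPM of the 6 genes in the RNA-Best library (blue) and the RNAlater library (orange), on a log axis, with 95% Poisson intervals of the counts as bars (hidden by the point where narrow). All 6 points lie lower in RNA-Best, with the widest gap for Egr3 (5.79 against 12.4 CPM) and the narrowest for Egr4 (8.87 against 10.6 CPM).

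All 6 members were lower in RNA-Best by CPM, as were 67.0% of all genes tested. Of the 6, only Egr3 was at least 2-fold lower, and its interval held 2-fold, while 4.99% of all genes tested were at least 2-fold lower. No member was at least 2-fold higher, against 0.273% of all genes. The median log2 ratio of the 6 was -0.60, against -0.18 over all genes. Scaling moved the ratios as a whole: the median of all genes was -0.01 under the TMM factors of edgeR, -0.0036 under DESeq2 size factors and -0.06 when Prl and Gh were left out of the total. All 6 members remained below 0 under each of these scalings. Under TMM the log2 ratios were -0.76 for Egr1, -0.87 for Egr3 and -0.08 for Egr4. There 51.4% of all genes were below 0 and no member was at least 2-fold lower. For Egr4 the interval by CPM ended at -0.07, and TMM raised the median of all genes by 0.16. No interval was taken under TMM, so Egr4 is not known to lie below 0 there by more than counting error.

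Ratios of members within a library do not depend on its scaling. Egr1 was counted 47.0 times as often as Nab2 in RNAlater and 29.8 times in RNA-Best, a difference of -0.66 on the log2 scale (log-normal 95% interval of the counts -0.74 to -0.57). Egr3 had 1.17 times the counts of Egr4 in RNAlater and 0.653 times in RNA-Best (-0.84, interval -1.11 to -0.57), so the order of these 2 genes by counts was not the same in the libraries. The 4 Egr genes together were counted at 20.3 times the level of Nab1 and Nab2 together in RNAlater and 13.9 times in RNA-Best, a log2 difference of -0.54 (-0.60 to -0.49). Without Egr1 the values were 0.948 and 0.739 (-0.36, -0.44 to -0.28). Egr1 made up 95.3% of the Egr counts in RNAlater and 94.7% in RNA-Best.

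By CPM the 6 log2 ratios, from lowest to highest, were those of Egr3, Egr1, Egr2, Nab1, Nab2 and Egr4. Of the 15 pairs of members, 13 differed in their ratio by more than counting error. The exceptions were neighbours in this order, Egr1 and Egr3 (difference 0.17, interval -0.04 to 0.37) and Egr4 and Nab2 (0.02, -0.18 to 0.22). Of the 13, the pair of Egr4 and Nab1 had an interval that nearly reached 0 (0.20, 0.0027 to 0.40). How many pairs of other genes differed in this way was not counted. The steps from Egr1 to Egr2 (-0.17, -0.24 to -0.10), from Egr2 to Nab1 (-0.30, -0.40 to -0.20) and from Nab1 to Nab2 (-0.18, -0.29 to -0.07) exceeded counting error. With the trend on transcript length removed (below), Egr1 (-0.56) no longer lay below Egr2 (-0.59), nor Nab1 (-0.17) below Nab2 (-0.16). With the median transcript length, Egr1 (-0.44) again lay above Egr2 (-0.68), but Nab1 (-0.33) lay below Nab2 (-0.15). The step from Egr2 to Nab1 kept its direction with both lengths. The spread between replicate samples, against which these steps would have to be judged, was not measured.

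Levels of different genes were compared as CPM per kb of the longest annotated transcript. In RNAlater the order was Egr1 (525), Egr2 (31.1), Nab2 (19.4), Nab1 (18.5), Egr4 (4.92) and Egr3 (3.14). In RNA-Best the order was the same, at 275, 18.4, 16.0, 13.5, 4.13 and 1.47. Nab1 and Nab2 did not differ beyond counting error in RNAlater, where their intervals overlapped (17.8 to 19.1 and 18.6 to 20.2), while the other neighbours did in both libraries. The place of Nab1 and Nab2 depended on the length used. With the median length of the annotated transcripts of each gene, Nab1 stood above Nab2 in both libraries (52.2 against 36.9 in RNAlater, 38.1 against 30.5 in RNA-Best). Egr4 then stayed above Egr3, at 4.92 against 4.60 in RNAlater and 4.13 against 2.15 in RNA-Best. In RNAlater the interval of Egr4 (4.49 to 5.39) held the Egr3 value, so that gap also depended on the length.

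Transcript length was considered because longer transcripts had lower ratios in these libraries. The longest annotated transcripts of the members ran from 2148 bases for Egr4 to 4484 bases for Egr1. The median log2 ratio of all genes was -0.09 for transcripts of 2 to 3 kb, which holds Egr2, Egr4 and Nab2, -0.22 for 3 to 4 kb (Egr3 and Nab1) and -0.40 for 4 to 6 kb (Egr1). Within its own length class, Egr3 lay at the 1.84th percentile of log2 ratios, Egr2 at the 2.83rd and Egr1 at the 7.91st, whereas Nab1, Nab2 and Egr4 lay at the 24.7th, 26.5th and 29.3rd.

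With the trend on length over all genes removed, the values were -0.75 for Egr3, -0.59 for Egr2 and -0.56 for Egr1, against -0.19 for Egr4, -0.17 for Nab1 and -0.16 for Nab2. All 6 were still below 0, as were 48.9% of the genes with a length. When the median transcript length of each gene was used for the trend instead, Egr4 stood at 0.02, Nab1 at -0.33 and Egr1 at -0.44, so the gap between Nab1 and Egr1 depended on the transcript assumed.

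**Figure D2:**
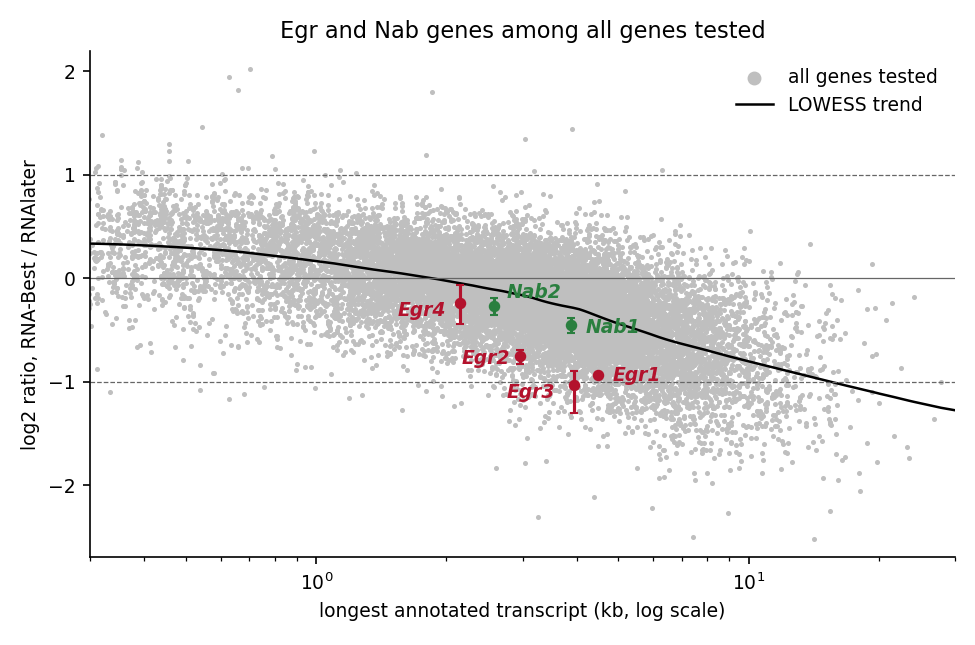
Log2 ratio of RNA-Best to RNAlater against the length of the longest annotated transcript (kb, log axis) for all genes tested (grey; genes beyond the axis limits are not drawn), with the LOWESS trend (black), lines at 0 and at 2-fold (dashed), and the Egr genes (red) and Nab genes (green) with 95% counting intervals. Egr1, Egr2 and Egr3 lie 0.56 to 0.75 below the trend, and Egr4, Nab1 and Nab2 0.16 to 0.19 below it.

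The counts of the 4 Egr genes were whole numbers in both libraries, and those of Nab1 and Nab2 held fractions. The exons of Nab2 share 1050 bases (35.7% of its exonic bases) with the antisense gene Gm16229, 151 bases with Nemp1 and 40 bases with Stat6, all on the other strand. Gm16229 was listed at 0 counts in RNA-Best and 1 in RNAlater, Nemp1 at 7.18 and 9.15 CPM, and Stat6 at 29.4 and 44.1 CPM. With at most 1 count, Gm16229 was credited with hardly any reads of the bases that it shares with Nab2. The strand setting of the counting is not given in the sources used here. Whether reads in the shared bases were counted for Nab2 or left out could thus not be told. Were they left out, the Nab2 level would be too low.

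Of 6 genes for serum response factor and its partners, which act on Egr promoters, 5 were lower in RNA-Best both by CPM and under TMM, and by CPM 1 was at least 2-fold lower, with a median log2 ratio of -0.70. With the length trend removed the median was -0.34, and 5 of 6 lay below 0. For this list and those below, the shares over all genes tested were 67.0% lower by CPM and 51.4% under TMM. They were 4.99% for at least 2-fold lower by CPM, and 48.9% for below 0 with the length trend removed. Srf itself had 145 CPM in RNA-Best against 193 in RNAlater (-0.41, interval -0.46 to -0.37). Among the ternary complex factors, Elk4 stood at -0.74, Elk3 at -0.65 and Elk1 at 0.01 (-0.13 to 0.16). The ends of the list were Elk1 and Mrtfb, an actin-regulated coactivator of serum response factor with a transcript of 8295 bases, at -1.07, or -0.35 with the length trend removed.

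The 14 genes of the ERK cascade, from Ras to the Rsk kinases, had a median of -0.24, close to that of all genes, with 11 lower and 3 higher by CPM, 7 lower under TMM, and none past 2-fold by CPM. With the length trend removed 6 of 14 lay below 0, and the median was 0.05. Rps6ka3, which encodes the ERK-activated kinase Rsk2, was the lowest at -0.73, and Hras the highest at 0.61 (0.52 to 0.71).

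The list of GnRH signalling and Lhb promoter genes holds the receptor and G protein genes that act before Egr1 in gonadotropes, the partners of Egr1, and Lhb. Its median log2 ratio was -0.09, with 4 of 6 lower by CPM, 1 under TMM and 2 with the length trend removed, so the direction of the small differences rested on the processing. Gnrhr, the GnRH receptor gene, had 20.4 CPM in RNA-Best against 21.8 in RNAlater, and its log2 ratio was -0.09 (-0.22 to 0.03). The ratios of Nr5a1 and Pitx1, the partners of Egr1 at the Lhb promoter, were also -0.09. The interval was -0.23 to 0.04 for Nr5a1 and -0.16 to -0.03, below 0, for Pitx1. Lhb was higher in RNA-Best, at 145 against 120 CPM (0.27, 0.22 to 0.32), but its transcript is short, at 678 bases, and with the length trend removed it lay at 0.02. At the other end of this list was Gnaq, the G protein subunit gene downstream of the receptor, at -0.83, or -0.32 with the length trend removed.

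Of 19 genes known as Egr targets, most of them in other tissues, 18 were tested, 16 were lower in RNA-Best by CPM as under TMM and 2 at least 2-fold lower, with a median of -0.53. With the length trend removed 14 of 18 lay below 0, and the median was -0.34. All genes gave shares of 67.0% lower by CPM, 51.4% under TMM, 4.99% at least 2-fold lower and 48.9% with the length trend removed. The lowest were Fn1, which encodes fibronectin, at 1.87 and 7.44 CPM (-1.74), and Tgfb1, the gene of a secreted growth factor, at 8.07 and 17.3 CPM (-1.05). The highest was Lhb, with the values given above. Fasl was below 1 CPM and was not tested.

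Nab2 recruits the NuRD deacetylase complex through the helicase Chd4. Of 13 NuRD subunit genes, 12 were lower by CPM and 8 under TMM, and 3 were at least 2-fold lower by CPM, with a median of -0.34. With the length trend removed the median was -0.04, and 8 of 13 lay below 0. Over all genes, 67.0% were lower by CPM, 51.4% under TMM and 48.9% with the length trend removed. By CPM, 4.99% were at least 2-fold lower. Chd4 had 108 CPM in RNA-Best against 310.0 in RNAlater (-1.52, -1.57 to -1.48), and Chd3 had 33.4 and 93.6 CPM (-1.47). These have transcripts of 6697 and 7261 bases, and they lay at -0.91 and -0.82 with the length trend removed. Rbbp4, a histone-binding subunit, was the highest at 0.37. Of 5 other zinc finger factors that bind GC-rich sites, 4 were tested and all 4 were lower by CPM and under TMM, with CPM ratios from -0.93 for Sp1 to -0.24 for Sp3. With the length trend removed only Sp1 of the 4 lay below 0, at -0.25, and the median was 0.17. Wt1, whose zinc fingers bind an Egr-like site, had 0 counts in both libraries, which allows up to 0.0556 CPM (RNA-Best) and 0.0668 CPM (RNAlater) by a limit of 3 counts.

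Among 28 other immediate-early genes, 27 were lower in RNA-Best by CPM and 21 under TMM, 1 was at least 2-fold lower and the median was -0.53. With the length trend removed 26 of 28 lay below 0, and the median was -0.38. The matching shares of all genes were 67.0% by CPM, 51.4% under TMM, 4.99% at least 2-fold lower and 48.9% with the length trend removed. Only Nr4a3 (-1.15) had a lower ratio than Egr3, only Nr4a3 and Fosl1 (-0.99) had a lower ratio than Egr1, and 21 of the 28 had a lower ratio than Egr4. Fosb stood at -0.79, Jun at -0.62, Nr4a1 at -0.57, Fos at -0.51, Dusp1 at -0.17 and Junb at -0.13, and Rgs2 was the only one higher, at 0.11. In CPM, 1 of the 28, Fos, exceeded Egr1 in RNAlater and 4 did in RNA-Best. Egr1 was counted 0.732 times as often as Fos in RNAlater and 0.547 times in RNA-Best. No gene of this list was as weakly expressed as Egr3 or Egr4 in either library.

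**Figure D3:**
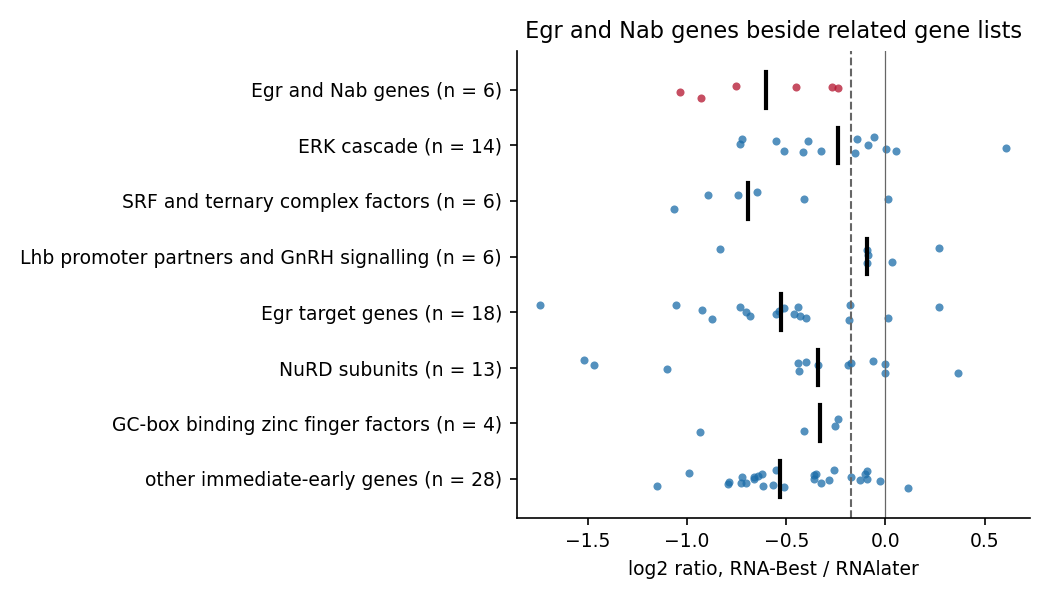
Log2 ratio of RNA-Best to RNAlater for each gene with a mean of at least 1 CPM in the 6 Egr and Nab genes (red) and in 7 related lists (blue), 1 point per gene, with the list median as a black bar, a dashed line at the median of all genes (-0.18) and a solid line at 0. The medians run from -0.70 for serum response factor and its partners to -0.09 for the GnRH and Lhb promoter genes, and the Egr and Nab median is -0.60.

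The gene nearest to each member in level in both libraries was found by the distance in log2(CPM + 0.5) over the 2 libraries. For Egr1 it was the immediate-early gene Jun, at 1453 CPM in RNA-Best against 2227 in RNAlater and a distance of 0.249. The nearest genes to the others lay within 0.012, where many genes have like levels, and were Dennd5a for Egr2, Rest for Egr3, Fig4 for Egr4, Sh2b1 for Nab1 and Zdhhc1 for Nab2.

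The cells that carry these transcripts cannot be read from bulk RNA, in which fewer cells of a type and less RNA per cell cannot be told apart. Markers of all 5 endocrine cell types were present, led by Prl and Gh, and no defining marker of these types was at 0. Summed endothelial markers stood at 333 CPM in RNA-Best against 658 in RNAlater, with 6 of 6 lower. Markers of pericytes and fibroblasts stood at 503 and 646 CPM (6 of 6 lower), with a median log2 ratio of -0.80, and Col1a2 held most of these sums, at 376 and 425 CPM (-0.18). Markers of stem and folliculostellate cells stood at 169 and 252 CPM (5 of 5 lower) and those of the posterior lobe at 78.1 and 153 CPM (4 of 4 lower). These counts stand beside the 67.0% of all genes tested that were lower by CPM.

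Schwann and myelinating glia, which use Egr2, had markers at 110 and 140 CPM, with 3 of 4 tested lower, and their defining factor Sox10 had 16 and 25 counts. Macrophage markers stood at 192 and 177 CPM, with 3 of 7 lower, and lymphocyte markers at 2.78 and 3.81 CPM. Erythroid genes were higher in RNA-Best, at 3200 and 1130 CPM, with 5 of 5 higher. The summed markers of gonadotropes were 250 and 213 CPM, with 2 of 4 higher and 2 lower. Lhb held most of these sums, at 145 and 120 CPM. The part of these cell types in the levels of the Egr and Nab genes was not tested.

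**Figure D4:**
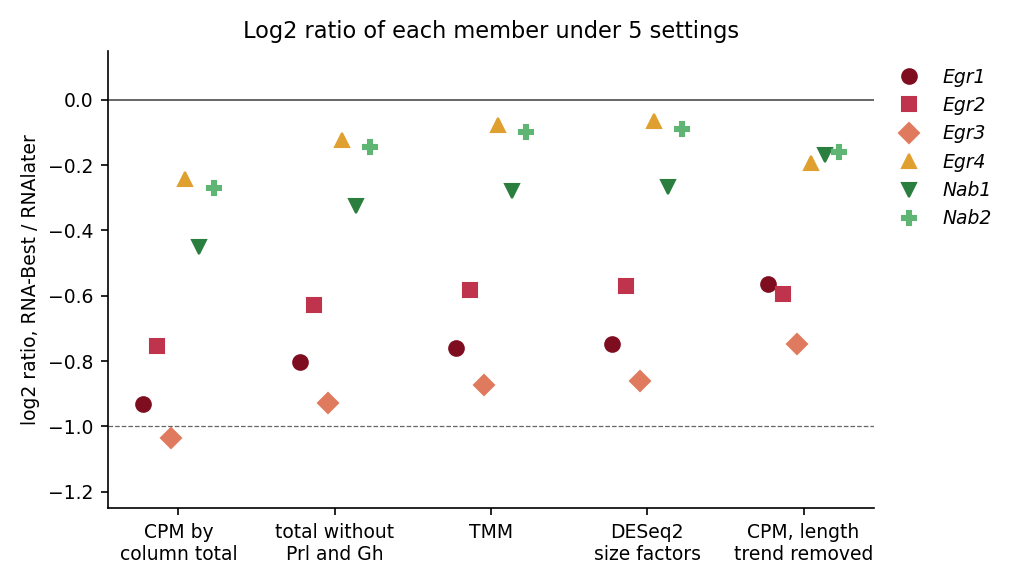
Log2 ratio of RNA-Best to RNAlater of the 6 genes under 4 scalings of the libraries and after removal of the length trend, with a dashed line at 2-fold lower. Under all 5 settings Egr1, Egr2 and Egr3 lie below Egr4, Nab1 and Nab2, and only Egr3 under the column total (-1.03) passes 2-fold.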

How the data were processed

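Poly(A) RNA of dissociated mouse pituitary cells was sequenced as single reads from 1 TruSeq mRNA library per stabilizer. Per the labels, the authors aligned reads with STAR 2.5.1b to mm10 and counted them per gene with featureCounts 1.5.0-p1. The deposited values are estimated counts, not normalized: of the values above 0, 35.4% (RNA-Best) and 34.9% (RNAlater) were not whole. How reads were divided is not given in the sources used here.

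Symbols, coordinates and lengths came from GENCODE M21 on GRCm38, which matched 98.8% of the 47069 identifiers (version suffix ignored). Older symbols in lists were matched through RefSeq synonyms. Counts were scaled to CPM by column total. Log2 ratios used a pseudocount of 0.5 CPM, which understates ratios of low genes, over the genes whose mean reached 1 CPM. The study's limma model was not used, since 1 library per group leaves no residual degrees of freedom, so no p-value is given. A 2-fold limit was the rule of size. Intervals of ratios are exact conditional binomial 95% intervals on rounded counts without the pseudocount. TMM (edgeR 4.0.16) and DESeq2 1.42.0 size factors (R 4.3.3) were alternatives. Length trends used LOWESS with a span of 0.2 (statsmodels 0.14.6). Steps were tested on simulated data.

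The 6 genes and the 7 gene lists and 13 marker lists were chosen with earlier results of these data known. Named were the 6 genes, both ends of each gene list, Fos, Fosb, Jun, Junb, Nr4a1, Dusp1, Srf, Elk1, Elk3, Elk4, Gnrhr, Nr5a1, Pitx1, Lhb, Chd3, Chd4, genes with exons overlapping a member and the gene nearest to each member. Tgfb1, Fasl, Wt1, Fosl1, Sox10, Col1a2, Prl and Gh were named after their values were seen.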

Additional observations from a re-analysis of the deposited data

How the results depend on the processing

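No paired analysis was possible because the stabilizers have 1 library apiece, which also leaves no replicate to omit. The direction of all 6 members held under the 4 scalings and with pseudocounts of 0.1 and 5 CPM. The median log2 ratio of the 6, -0.60 by column total, was -0.43 under TMM, -0.42 under DESeq2 size factors, -0.48 without Prl and Gh in the total, -0.43 relative to the median of all genes and -0.38 with the length trend removed. A trend on the median transcript length, chosen after seeing the data, gave -0.38, and Egr4 then changed sign to 0.0216. The 1 member past 2-fold, Egr3, became 0 members under TMM, DESeq2 size factors, the total without Prl and Gh, and a pseudocount of 5 CPM.

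Of all genes, 824 were at least 2-fold lower and 45 at least 2-fold higher in RNA-Best. The counts were 438 and 110 under TMM, 423 and 118 under DESeq2 size factors, and 333 and 22 with a pseudocount of 5 CPM. Without Prl and Gh in the total 94 genes were higher, and 15 were higher among protein-coding genes only. The ratio of summed Egr to summed Nab levels, 13.9 in RNA-Best and 20.3 in RNAlater by counts, was 10.1 and 14.9 per kb, since the division by length changes the weight of each gene. The cause of the other changes was not tested. With 312 and 556 counts, Egr3 is the least precise of the 6.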
